A study of Mus musculus with 23 samples.

Results

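The stellate-cell and tumour-organoid fractions of the same co-cultures were compared: 11 of the 12 cultures in the series gave both a PSC library and an organoid library, 22 of 23 libraries in all. A culture entered where its titles named the same organoid line and the same PSC line for a stromal ("Fibro") and a tumour ("Tum") library; 1 PSC library (T69A organoids with PSC4 KO A3) had no partner and was left out. Pancreatic stellate cells (PSCs) and pancreatic tumor organoids, both of mouse, had shared Matrigel, a basement membrane gel, over 3.5 days in medium given as reduced/control. A flow sorter then parted them into the fractions. The organoid line was T6-LOH in 6 cultures, T12-LOH in 3 and T69A in 2. The PSCs came from line PSC4 in 8 cultures and PSC5 in 3. They were labelled Rosa and wild type (WT) for Egfr in 4 cultures (PSC4 Rosa with each organoid line, PSC5 Rosa with T6-LOH). In the other 7 they were Egfr knockout (KO) lines: A3 and B4 from PSC4 with T6-LOH and with T12-LOH, B4 with T69A, and C5 and D4 from PSC5 with T6-LOH. KO refers to the stellate cells; the labels give an organoid library the genotype of the PSCs it was grown with, and give no genotype for the organoids themselves. The lines recur across cultures, so the cultures are not 11 independent donors, and the labels do not say whether both fractions came from the same dish.

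Pancreatic tumours hold a malignant epithelium inside a dense stroma that stellate cells and the fibroblasts derived from them build. The compartments signal to each other through secreted ligands and surface receptors: tumour cells send Hedgehog, PDGF and interleukin-1 signals to the stroma, and stromal cells send growth factors such as HGF and inflammatory cytokines such as IL-6 back. They also differ in metabolism, with stromal cells known for matrix production and tumour cells for lipid and mucin synthesis.

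The 11 PSC libraries held 22317538 to 34828131 estimated counts and the 11 organoid libraries 23814409 to 34643087. Fold changes below are log2 values of PSC over organoid from edgeR's quasi-likelihood test with culture as a block. A positive value is thus higher in PSCs. SE is an approximate standard error, the absolute fold change divided by the square root of the test's F value. Adjusted p is Benjamini-Hochberg over all genes tested. Levels of 1 gene across libraries are given in CPM, counts scaled to the total over tested genes with TMM size factors. CPM of untested genes and of the library left out, and the number of genes reaching 1 CPM, rest on plain library totals. Levels compared between genes are given in TPM, which also corrects for transcript length. The fractions differed at most genes: 10589 of 14058 tested genes passed adjusted p under 0.05 (75.3%), 5247 higher in PSCs (37.3%) and 5342 higher in organoids (38%). A change of 8-fold or more was found for 2413 genes (17.2%), 1252 higher in PSCs (8.91%) and 1161 higher in organoids (8.26%). The libraries of the fractions did not overlap at 5666 genes (40.3%). Against this background a single call says little. The values below are read for their size, within the limit given below with the other fraction's markers.

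The marker genes set here to check the fractions matched the labels in every library. The labels do not say which markers the sorter used. Epcam, an epithelial adhesion protein, was at 0.366 to 3.44 CPM in PSC libraries (median 1.19) and 406 to 1134 CPM in organoid libraries (median 847). Krt19, a duct keratin, was at 9.09 to 54.8 CPM in PSC libraries (median 25.1) and 2319 to 5120 CPM in organoid libraries (median 2722). Col1a1, a chain of fibrillar collagen I, was at 3088 to 8185 CPM in PSC libraries (median 6230) and 0.353 to 11.7 CPM in organoid libraries (median 1.69). Pdgfrb, the PDGF receptor of mesenchymal cells, was at 204 to 415 CPM in PSC libraries (median 338) and 0 to 0.317 CPM in organoid libraries (median 0.0706). The fractions were far apart for each of these genes, with log2 fold changes of -9.27 (SE 0.47), -6.97 (SE 0.31), 11.65 (SE 0.54) and 11.67 (SE 0.34) in the same order. Of the epithelial markers, 20 of 20 were higher in organoids, against 38% of all tested genes. Of the fibroblast and stellate markers, 24 of 24 were higher in PSCs, against 37.3%. The smallest differences, named here after their values were seen, were those of Sox9, a duct progenitor factor, at -0.94 (SE 0.25), and S100a4, a fibroblast calcium-binding protein, at 2.74 (SE 0.48), each in the labelled direction in 9 of 11 cultures. The call of Sox9 was lost with the 7 KO cultures alone (adjusted p = 0.115) and with counts summed per organoid line (adjusted p = 0.0862).

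**Figure D1:**
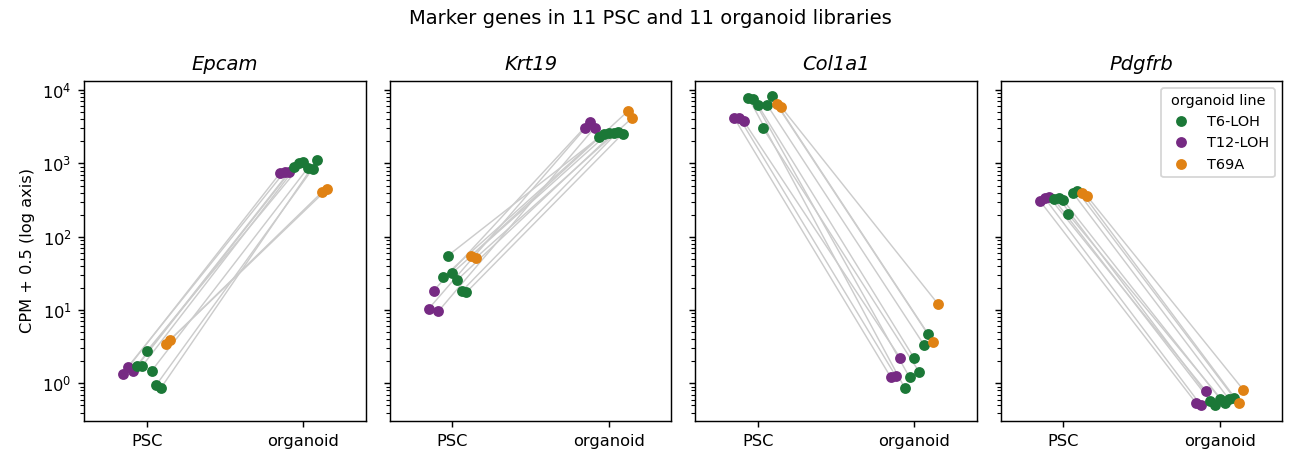
Levels of 4 marker genes in each of the 22 libraries, in CPM plus 0.5 on a log axis; each point is 1 library, grey lines join the fractions of 1 culture, and colour gives the organoid line. Epcam and Krt19 are high in all 11 organoid libraries and Col1a1 and Pdgfrb in all 11 PSC libraries, with no overlap.

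Small amounts of the other fraction's markers were found on both sides. Epithelial markers in a PSC library stood at 0.0503 to 0.693% of their level in the organoid library of the same culture (median 0.146%), highest in the 2 T69A cultures. Fibroblast markers in an organoid library stood at 0.012 to 0.176% of the PSC level (median 0.0602%). The median shares correspond to log2 sizes of 9.42 for epithelial and 10.7 for fibroblast markers. Fold changes near or beyond these sizes mark a gene as low or near absent in the other fraction, and their exact size is not read. Where a fraction had few or no counts, the fitted size also depends on the small prior count that the fit adds. Cells and free RNA of the other fraction cannot be told apart, and their part in the differences was not tested. Markers of other cells were mostly low: 9 of 12 immune markers were under 1 TPM in every library of either fraction, among them Ptprc, the pan-leukocyte antigen, and 11 of 12 acinar and endocrine markers were as well. The summed immune level was 28.2 to 97.7 TPM in PSC and 61.1 to 118 TPM in organoid libraries, mostly from Cd14 and Cd68, myeloid markers. Endothelial markers summed to at most 11.9 TPM in a library, and Schwann and neural markers to 25.6 to 52.7 TPM in PSC and 1.03 to 7.44 TPM in organoid libraries. The 8 mesothelial markers, which include Krt19 and Msln, both also known in pancreatic tumour cells, summed to 41.4 to 268 TPM in PSC and 3630 to 7020 TPM in organoid libraries, and Cd74, another of them, was at 10.1 to 105 CPM in PSC libraries (median 38.25) and 0.0302 to 0.386 CPM in organoid libraries (median 0.136). In bulk libraries fewer cells of a type and less RNA per cell cannot be told apart.

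Stellate cells labelled KO kept Egfr transcripts, and the labels do not say which part of the gene was cut, so its level does not check them. Egfr was at 278 to 420.0 CPM in the 4 WT and 57.4 to 347 CPM in the 7 KO PSC libraries and at 86.0 to 151 CPM in organoids grown with WT and 75.6 to 133 CPM in organoids grown with KO PSCs. Across all 11 cultures Egfr was higher in PSCs in 10 of 11, with a log2 difference of 0.97 (SE 0.22) and adjusted p = 0.00125, a value that mixes WT and KO stellate cells, whose Egfr levels overlapped.

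Saa3 and biglycan led the PSC side by level, and clusterin and 4 keratins the organoid side. Among genes at least 8-fold different in the fit and in the same direction in all 11 cultures, the highest mean TPM in PSCs was that of Saa3, a serum amyloid A acute-phase protein (18730 against 5.77 TPM in organoids). Bgn, the proteoglycan biglycan, followed with 3231 TPM, and Hp, haptoglobin, with 3056 TPM; Lgals1, Ifitm3, Mgp, Igfbp7, Mt2, Sparc and Col1a1 completed the 10. Saa3 varied widely among PSC libraries, at 605 to 11530 CPM in PSC libraries (median 3241), and was at 0 to 11.5 CPM in organoid libraries (median 0.447). The PSC libraries with T6-LOH held 605 to 3260 CPM of it and those with T12-LOH 6950 to 11500 CPM. In organoids the highest were Clu, the chaperone clusterin (6825 against 159 TPM in PSCs), Krt19 (3733 TPM), Krt18 (2938 TPM), Krt8 and Krt7. Wfdc2, Tff1, Lgals4, Gsta4 and Fam213a made up the rest.

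Ligands were split evenly and receptors leaned to the stroma. Of 131 ligands tested, 57 were higher in PSCs and 57 in organoids (43.5% each, against 37.3% and 38% of all tested genes). Another 17 did not pass. Of 145 receptors, 90 were higher in PSCs (62.1%, against 37.3% of all tested genes), 41 in organoids (28.3%, against 38%) and 14 did not pass. The median log2 fold change was -0.14 for ligands and 1.15 for receptors, beside -0.03 for all tested genes.

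The EGF family of ligands was divided by member. Areg, amphiregulin, was at 0.941 to 5.49 CPM in PSC libraries (median 3.18) and 87.7 to 205 CPM in organoid libraries (median 122). Tgfa, transforming growth factor alpha, was at 0.43 to 3.44 CPM in PSC libraries (median 1.35) and 97.5 to 118 CPM in organoid libraries (median 111.5). Organoids were thus higher in every library for both, at log2 fold changes of -5.58 (SE 0.24) and -6.29 (SE 0.30). Btc, betacellulin, at -5.60 (SE 0.30), and Hbegf, heparin-binding EGF, at -2.29 (SE 0.09), were higher in organoids too. Nrg1, the neuregulin that binds ERBB3, went the other way: it was at 32.35 to 94.6 CPM in PSC libraries (median 49.97) and 0 to 11.05 CPM in organoid libraries (median 0). Its log2 fold change was 7.38 (SE 1.39). The organoid level came from T12-LOH, with 9.07 to 11.0 CPM, where T6-LOH organoids had no count and T69A organoids at most 0.136 CPM. Ereg, epiregulin, was also higher in PSCs at 2.17 (SE 0.18), with a mean of 178 against 33.7 TPM. The receptor Erbb3 was at 1.33 to 5.855 CPM in PSC libraries (median 2.24) and 191 to 310.1 CPM in organoid libraries (median 229), a log2 fold change of -6.49 (SE 0.21), and Erbb2, its partner, was higher in organoids at -1.22 (SE 0.10). With counts summed per organoid line the call of Nrg1 was lost (adjusted p = 0.0994).

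HGF, FGF and PDGF components were divided as well. Hgf, the ligand of MET, was at 41.4 to 127 CPM in PSC libraries (median 58.45) and 0 to 0.0906 CPM in organoid libraries (median 0). Met was at 21.7 to 66.1 CPM in PSC libraries (median 39.3) and 161 to 213 CPM in organoid libraries (median 177). The ligand differed by 11.68 (SE 0.32) and the receptor by -2.22 (SE 0.17), with no overlap between the fractions for either. Ptn, pleiotrophin, stood at 12.42 (SE 0.30), Fgf2 at 10.48 (SE 0.37), Fgf7 at 8.23 (SE 0.10) and Igf1 at 9.84 (SE 0.47), all higher in PSCs, whereas Fgf1 (-2.71 (SE 0.53)) and Fgf9 (-2.69 (SE 0.82)) were higher in organoids. Pdgfb and Pdgfd, ligands of PDGFRB, were higher in organoids at -2.57 (SE 0.45) and -3.15 (SE 0.31); Pdgfa and Pdgfc were higher in PSCs at 0.76 (SE 0.11) and 1.58 (SE 0.23). Of 36 receptor tyrosine kinases tested, 17 were higher in PSCs (47.2%, against 37.3% of all tested genes) and 13 in organoids (36.1%, against 38%). Those of PSCs with the highest TPM were Axl (356 against 15.9 TPM), Pdgfra (207 against 0.34) and Fgfr1 (149 against 0.3). Those of organoids were Epha2 (239 against 50.6 TPM), Ddr1, a collagen receptor (89.7 against 65.0), and Erbb3 (59.35 against 0.844). The call of Fgf9 was lost with the 4 WT cultures alone (adjusted p = 0.527) and with counts summed per organoid line (adjusted p = 0.4245). The KIT ligand Kitl was higher in organoids at -1.63 (SE 0.21).

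Cytokine genes leaned to the epithelium and their receptors to the stroma. Of 16 cytokines tested, 11 were higher in organoids (68.8%, against 38% of all tested genes) and 4 in PSCs (25.0%, against 37.3%). Of 32 cytokine and chemokine receptors, 5 were higher in organoids (15.6%) and 22 in PSCs (68.8%). Il6 was at 25.5 to 222 CPM in PSC libraries (median 91.3) and 0.0344 to 2.54 CPM in organoid libraries (median 0.14), with a log2 fold change of 7.96 (SE 0.45); Lif, of the same family, was at 2.49 (SE 0.22). Il1a, which starts interleukin-1 signalling, was at 0.246 to 21.1 CPM in PSC libraries (median 2.03) and 55.7 to 444 CPM in organoid libraries (median 141), at -5.77 (SE 0.39). Its natural antagonist Il1rn was higher in organoids as well, at -4.34 (SE 0.67), as were the alarmin Il33 at -2.81 (SE 0.54) and Tnf at -5.57 (SE 0.36). Il1r1, the receptor of Il1a and Il1rn, did not pass (0.44, with a mean of 47.8 TPM in PSCs and 29.8 TPM in organoids). The shared IL-6 family subunit Il6st (3.21 (SE 0.15)) and the oncostatin M receptor Osmr (4.58 (SE 0.46)) were higher in PSCs. Il22ra1 (-8.74 (SE 0.36)) and Il18r1 (-8.16 (SE 0.27)) were the receptors most restricted to organoids among the 5 higher there. Chemokines split 8 and 7 of 17 (47.1% higher in PSCs and 41.2% in organoids, against 37.3% and 38% of all tested genes). Cxcl12 was at 367 to 2811 CPM in PSC libraries (median 1097) and 0 to 1.495 CPM in organoid libraries (median 0.1285), at 12.25 (SE 0.56), and Ccl2, a monocyte attractant, and Cxcl1, a neutrophil attractant, were higher in PSCs at 11.20 (SE 0.51) and 6.21 (SE 1.12). Cxcl5 (-1.72 (SE 0.53)), Ppbp (-6.21 (SE 0.52)) and Ccl20 (-1.86 (SE 0.39)) were higher in organoids. In the 6 T6-LOH cultures alone the calls of Cxcl5 (adjusted p = 0.0857) and Ccl20 (adjusted p = 0.0710) were lost, and that of Cxcl5 also with the 4 WT cultures, where its difference was -0.17 (adjusted p = 0.311).

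TGF-beta ligands were higher in PSCs, while Tgfbr2 was higher in organoids. Of 14 receptors of this family, 10 were higher in PSCs (71.4%, against 37.3% of all tested genes) and 4 in organoids (28.6%, against 38%). Tgfb1, Tgfb2 and Tgfb3 were higher in PSCs at 1.27 (SE 0.17), 6.96 (SE 0.90) and 2.07 (SE 0.48), and Inhba, an activin subunit, at 5.03 (SE 0.54). Tgfbr2, the receptor that binds TGF-beta, was at 91.6 to 174 CPM in PSC libraries (median 138) and 189.6 to 367 CPM in organoid libraries (median 324), at -1.11 (SE 0.10); Tgfbr1 was higher in PSCs at 1.06 (SE 0.15). Bmp2 (-7.46 (SE 0.45)) and Bmp4 (-3.27 (SE 0.32)) were higher in organoids, and their receptor Bmpr1a in PSCs at 0.29 (SE 0.07). With the 4 WT cultures alone the calls of Bmpr1a (adjusted p = 0.171) and Tgfb3 (adjusted p = 0.0595) were lost, as they were with counts summed per organoid line (adjusted p = 0.139 and adjusted p = 0.0841).

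Wnt ligands were divided by member, Ihh and Dhh were both higher in organoids, and the Hedgehog co-receptor Gas1 was near absent from organoids. Wnt5a was at 15.7 to 111 CPM in PSC libraries (median 65.3) and 0 to 0.728 CPM in organoid libraries (median 0.068), and Wnt7b was at 0.154 to 1.7 CPM in PSC libraries (median 0.5) and 185.5 to 309.8 CPM in organoid libraries (median 227); they differed in opposite directions, at 8.04 (SE 0.81) and -8.55 (SE 0.37). Wnt7a was higher in organoids at -9.09 (SE 0.45). Rspo3, an R-spondin that amplifies Wnt signals through LGR receptors, was at 0.742 to 35.05 CPM in PSC libraries (median 13.3) and 0 to 0.0726 CPM in organoid libraries (median 0), at 9.82 (SE 0.38). Its receptor Lgr5, a stem cell marker of gut epithelium, was at 0 to 0.439 CPM in PSC libraries (median 0.0769) and 0.767 to 31.7 CPM in organoid libraries (median 20.5), at -6.85 (SE 0.48), and Lgr4 was at -1.39 (SE 0.16). Rnf43, which removes Wnt receptors and is the target of R-spondins, was higher in organoids at -7.32 (SE 0.42). The Hedgehog ligands Ihh (-5.33 (SE 0.53)) and Dhh (-7.09 (SE 0.29)) were higher in organoids. Gas1 was at 314 to 771 CPM in PSC libraries (median 515.5) and 0 to 0.589 CPM in organoid libraries (median 0.151), at 11.82 (SE 0.40); Ptch1, receptor and target of the pathway, was at 1.37 (SE 0.18), and Smo, its transducer, at 4.71 (SE 0.32), both higher in PSCs. Of 31 Notch, Eph and axon guidance ligands, 18 were higher in organoids (58.1%, against 38% of all tested genes) and 8 in PSCs (25.8%, against 37.3%). Slit2 (4.18 (SE 0.44)), Ntn1 (7.23 (SE 0.51)) and Slit3 (10.99 (SE 0.24)) had the highest TPM among those 8. The semaphorins Sema4a (-4.48 (SE 0.21)) and Sema3c (-4.04 (SE 0.62)) led the organoid side. Nrp2, a receptor of class 3 semaphorins, was higher in PSCs at 4.11 (SE 0.17).

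Integrins were divided between the fractions. Of 24 integrins and matrix receptors, 14 were higher in PSCs (58.3%, against 37.3% of all tested genes) and 8 in organoids (33.3%, against 38%). Itgb4, the hemidesmosome integrin that binds laminin, was at 0.45 to 4.45 CPM in PSC libraries (median 1.38) and 215 to 410.2 CPM in organoid libraries (median 271), at -7.43 (SE 0.24), and Itga6, its partner, was at -2.97 (SE 0.10). Its ligand chain Lama3 (-5.67 (SE 0.56)) was higher in organoids. Itga11, a collagen receptor of fibroblasts, was at 5.77 (SE 0.93), and Itga5, the fibronectin receptor, at 5.03 (SE 0.44), whereas Itga2, a collagen receptor of epithelia, was at -5.38 (SE 0.30). The call of Itga11 was lost with counts summed per organoid line (adjusted p = 0.0803).

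The placed pairs, from 111 ligand and receptor pairs in all, fell into every class. Some genes recur in several pairs, so pairs are not separate observations. The split to be expected from the leaning of receptors to PSCs was not computed. Both partners were higher in PSCs in 28 pairs, such as Igf1 with Igf1r, and both in organoids in 14. The ligand was higher in PSCs and the receptor in organoids in 12 pairs: Hgf with Met, Nrg1 with Erbb3, Tgfb1, Tgfb2 and Tgfb3 with Tgfbr2, Inhba with Acvr2a, Inhbb with Acvr2b, Rspo2 and Rspo3 with Lgr5, Rspo3 with Lgr4, and Col1a1 with Ddr1 and with Itga2. The reverse held in 20 pairs, among them Tgfa, Areg, Hbegf and Btc with Egfr, Pdgfb and Pdgfd with Pdgfrb, Ihh and Dhh with Ptch1, Il33 with Il1rl1, Tnf with Tnfrsf1a, and Wnt7b with Fzd1. In 37 pairs at least 1 partner did not pass or was not tested. Egfr on the PSC side mixes WT and KO stellate cells, and no pair with it was placed under the next rule. With a difference of at least 2-fold asked of both partners, the same classes held 20, 11, 11 and 13 pairs and 56 were not placed. Transcript levels do not show whether ligand and receptor met.

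**Figure D2:**
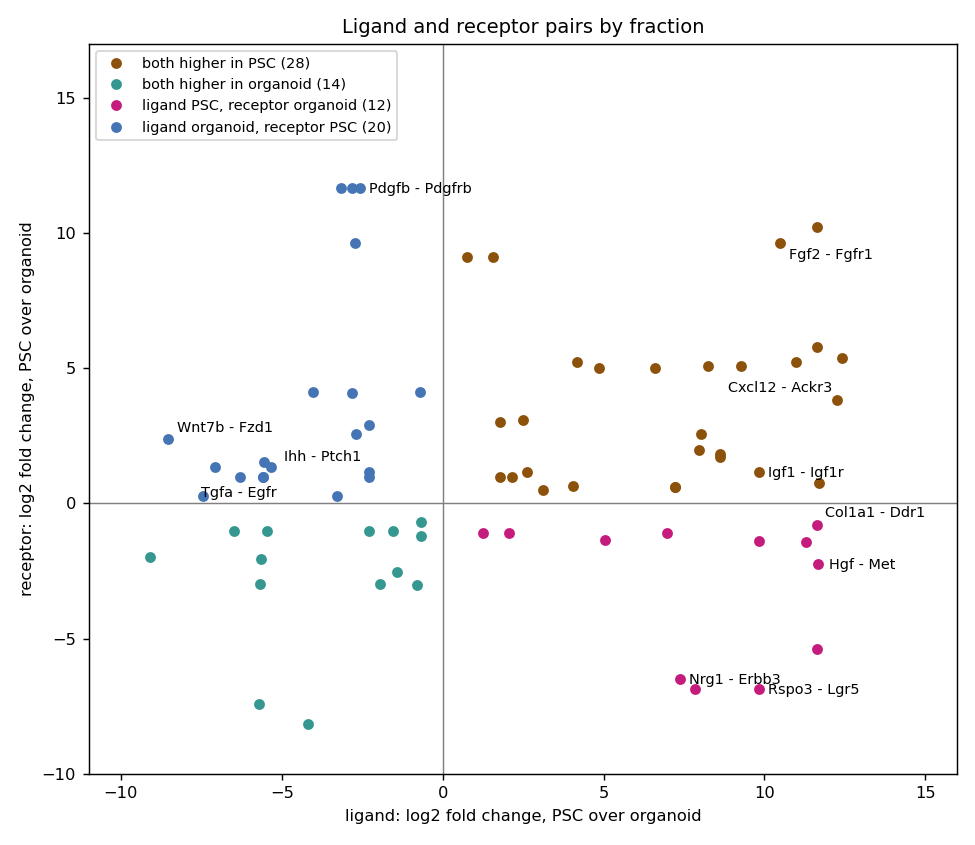
Ligand and receptor pairs with both genes past adjusted p under 0.05 (74 of 111), placed by the log2 fold change of the ligand on the x axis and of the receptor on the y axis, both as PSC over organoid. The upper left area holds the 20 pairs with the ligand higher in organoids and the receptor in PSCs, and the lower right area the 12 pairs of the opposite kind, with Hgf and Met at the far right.

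Transcription factors separated the fractions almost completely by list. Of 38 epithelial, gut and pancreas factors, 33 were higher in organoids (86.8%, against 38% of all tested genes) and 5 in PSCs (13.2%, against 37.3%). Of 53 mesenchymal and stellate factors, 49 were higher in PSCs (92.5%) and 1 in organoids (1.89%). Hnf4a, a gut and liver epithelial regulator, was at 0.0366 to 1.525 CPM in PSC libraries (median 0.205) and 164 to 314 CPM in organoid libraries (median 209), at -9.23 (SE 0.40). Elf3, an epithelial ETS factor, was at 0.246 to 2.87 CPM in PSC libraries (median 0.532) and 291 to 542 CPM in organoid libraries (median 457), at -9.27 (SE 0.42). Klf4 (-1.67 (SE 0.11)), Klf5 (-3.86 (SE 0.18)), Ehf (-8.21 (SE 0.43)) and Mecom (-2.72 (SE 0.12)) were the other organoid factors with the highest TPM. Prrx1, a homeobox factor of mesenchyme, was at 281 to 646 CPM in PSC libraries (median 369.9) and 0 to 0.634 CPM in organoid libraries (median 0.128), at 11.45 (SE 0.40). Nfix (2.53 (SE 0.10)), Twist2 (9.84 (SE 0.42)), Twist1 (8.06 (SE 0.78)) and Creb3l1, a regulator of collagen secretion (3.78 (SE 0.18)), followed.

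The 5 factors that went against their list were Gata6, Trp63, Vdr, Tfap2a and Elf4. Gata6, a GATA factor used to mark the classical type of pancreatic tumour cell, was at 24.0 to 51.1 CPM in PSC libraries (median 33.1) and 0.176 to 32.5 CPM in organoid libraries (median 0.838). It was higher in PSCs in all 11 cultures, at 3.54 (SE 0.97), but the fractions overlapped across cultures. Gata6 stood at 0.176 to 0.838 CPM in T6-LOH organoids, 12.5 to 16.0 CPM in T12-LOH organoids and 31.9 to 32.5 CPM in T69A organoids, against 24.0 to 51.1 CPM in all PSC libraries. The difference by line was 5.16 ± 0.664 (SD, n = 6), 1.12 ± 0.455 (n = 3) and 0.219 ± 0.238 (n = 2) on the log2 scale of CPM with 0.5 added (adjusted p = 2.80e-04 for the line). With the 4 WT cultures alone the fraction call was lost (adjusted p = 0.0907), as it was with counts summed per organoid line (adjusted p = 0.291). Trp63, the basal epithelial factor, was at 0.983 to 7.16 CPM in PSC libraries (median 1.85) and 0 to 0.171 CPM in organoid libraries (median 0.0322), at 5.41 (SE 0.60), and the vitamin D receptor Vdr, known in stellate cells as a brake on activation, was at 2.72 (SE 0.25). Tfap2a was at 2.06 (SE 0.44) and Elf4 at 0.33 (SE 0.06). The calls of Tfap2a and Elf4 were lost with the 4 WT cultures alone (adjusted p = 0.0736 and adjusted p = 0.0965) and with counts summed per organoid line (adjusted p = 0.0525 and adjusted p = 0.139). Klf2 was the mesenchymal list's exception, at -0.62 (SE 0.19). Its call was lost in the T6-LOH cultures alone (adjusted p = 0.249), in the KO cultures alone (adjusted p = 0.158), without the T69A cultures (adjusted p = 0.0535) and by limma on the TPM scale (adjusted p = 0.0821).

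The repressors ZEB and SNAI bind the letters CAGGTG, and their genes were among those higher in PSCs: Zeb1 at 8.60 (SE 0.39), Zeb2 at 10.32 (SE 0.37) and Snai2 at 8.26 (SE 0.74); these 3 were chosen for the motif and not by the rule for named genes. In RefSeq promoters of build GRCm38.p6, running from 250 bases before to 50 after each start, CAGGTG or its reverse complement CACCTG was present in 20.0% of all 27025 promoters and in 17.8% of the 10225 belonging to tested genes. It was present in 333 of 830 promoters of genes at least 8-fold higher in organoids (40.1%) and in 129 of 869 of those at least 8-fold higher in PSCs (14.8%). Of the markers with a promoter in the table, 11 of 13 epithelial and 2 of 15 fibroblast genes held it. Other motifs searched on both strands differed less: GGAATG, bound by TEAD factors, was in 15.5% and 14.7% of the organoid and PSC sets against 11.8% of tested genes, and GTTAAT, bound by HNF1 factors, in 6.27% and 4.72% against 4.03%. AACCGGTT, bound by GRHL factors, was rare, in 0.241% and 0.46% of the organoid and PSC sets against 0.274% of tested genes. A match is a description of the letters and not evidence of binding. The 250 bases before the start are shown for Spint2, Epcam and collagen I chain Col1a2, 5′ to 3′ on the gene's strand. Spint2 was the epithelial marker with the most matches. Epcam, a fraction marker named above, tied with Cldn4 and Muc1 at 2, and Col1a2, shown for contrast, had none. Capitals mark the motif. Epcam lies at chr17:87635729-87635978 (plus strand, 2 matches), Spint2, a serine protease inhibitor, at chr7:29281978-29282227 (minus strand, 3 matches), and Col1a2 at chr6:4505368-4505617 (plus strand, 0 matches).

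Epcam: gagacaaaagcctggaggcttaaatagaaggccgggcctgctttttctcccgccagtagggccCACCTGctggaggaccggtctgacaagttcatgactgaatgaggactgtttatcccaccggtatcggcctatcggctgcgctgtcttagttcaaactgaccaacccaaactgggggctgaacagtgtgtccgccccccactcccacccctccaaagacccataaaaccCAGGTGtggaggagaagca
Spint2: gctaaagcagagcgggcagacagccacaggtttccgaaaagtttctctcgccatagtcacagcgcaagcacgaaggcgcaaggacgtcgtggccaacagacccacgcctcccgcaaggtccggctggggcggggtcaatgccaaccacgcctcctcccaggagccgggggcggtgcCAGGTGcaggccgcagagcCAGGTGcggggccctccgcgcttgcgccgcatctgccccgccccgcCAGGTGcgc
Col1a2: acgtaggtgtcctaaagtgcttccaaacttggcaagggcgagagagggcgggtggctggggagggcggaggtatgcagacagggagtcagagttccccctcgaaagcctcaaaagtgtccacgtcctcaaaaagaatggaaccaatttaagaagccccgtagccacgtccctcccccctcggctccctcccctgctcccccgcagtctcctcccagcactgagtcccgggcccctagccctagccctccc

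**Figure D3:**
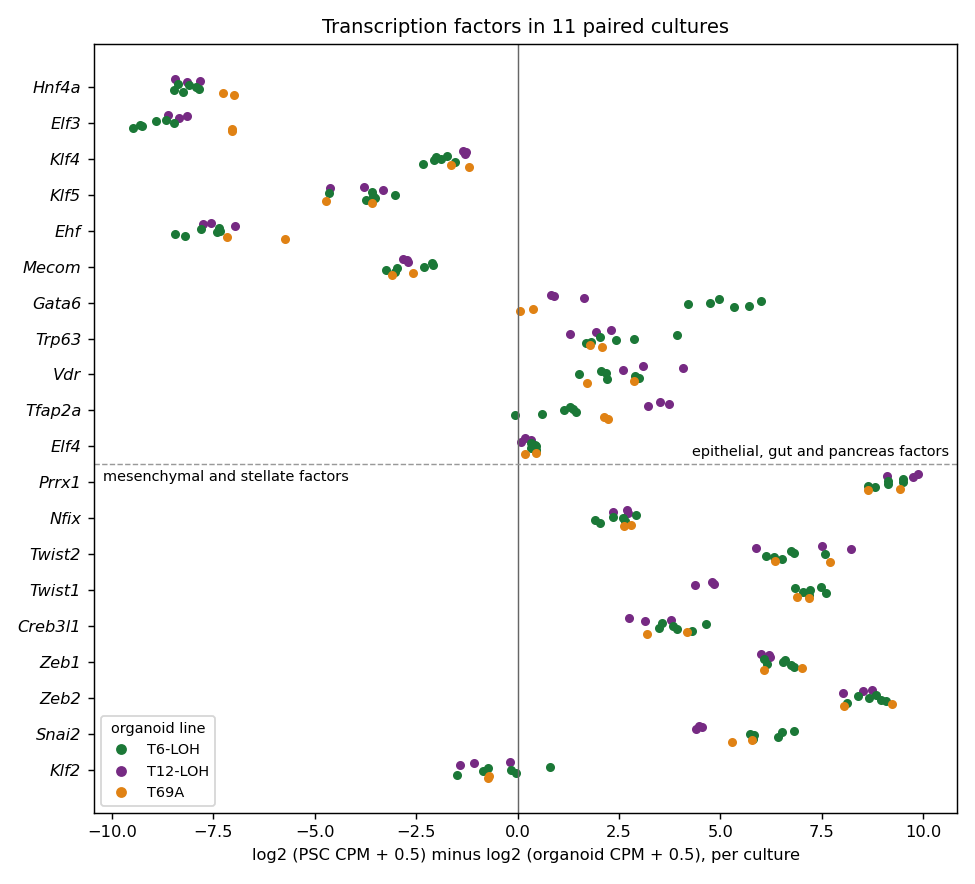
Difference of each transcription factor in each culture, as log2 of PSC over organoid CPM with 0.5 added, for the factors the text names; each point is 1 of 11 cultures and colour gives the organoid line. Epithelial factors lie left of 0 and mesenchymal factors right of it, except that all or most points of Gata6, Trp63, Vdr, Tfap2a and Elf4 lie right of 0 and most of Klf2 left of it.

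In metabolism the differences were more often towards the epithelium: of 443 genes tested, 223 were higher in organoids (50.3%, against 38% of all tested genes), 140 in PSCs (31.6%, against 37.3%) and 80 did not pass. The median absolute log2 fold change was 0.93, beside 2.02 for receptors, 6.39 for transcription factors and 0.746 for all tested genes. Sterol synthesis and uptake went mostly 1 way, with 25 of 29 genes higher in organoids (86.2%) and a median of -1.21. Hmgcs1, an early enzyme of the mevalonate route, was at 133 to 382 CPM in PSC libraries (median 266) and 520.2 to 783 CPM in organoid libraries (median 572), at -1.40 (SE 0.13). Fdps (-1.27 (SE 0.18)), Msmo1 (-1.01 (SE 0.18)), Sqle (-1.25 (SE 0.23)), Sc5d (-1.70 (SE 0.11)) and Cyp51 (-1.05 (SE 0.17)) went the same way. The call of Sqle was lost with the 4 WT cultures alone (adjusted p = 0.0733) and with counts summed per organoid line (adjusted p = 0.0837). The exceptions were Abca1, which exports cholesterol from cells, at 7.44 (SE 0.55), and Ch25h, which makes the oxysterol that restrains sterol synthesis, at 9.76 (SE 0.37). Abca1 was at 106 to 388 CPM in PSC libraries (median 158) and 0.0852 to 2.61 CPM in organoid libraries (median 0.908).

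Transcript levels of oxidative metabolism genes were modestly higher in organoids. Of 31 TCA cycle genes 22 were higher there (71.0%, against 38% of all tested genes) and 3 in PSCs (9.68%, against 37.3%), with a median of -0.58. Of 43 nuclear genes of the respiratory chain 28 were higher in organoids (65.1%) and 3 in PSCs (6.98%), with a median of -0.47. The median over TCA genes lay below 0 in all 11 cultures (-0.77 to -0.32), as did that of the respiratory chain (-0.79 to -0.23). Me1, malic enzyme, was at 73.9 to 127 CPM in PSC libraries (median 102.5) and 474 to 712 CPM in organoid libraries (median 601), at -2.61 (SE 0.10), and Idh1, which makes NADPH in the cytosol, was at -2.46 (SE 0.17). Among respiratory chain genes Cox6a1 (-0.47 (SE 0.06)) and Atp5b (-0.61 (SE 0.08)) were typical of the small sizes. Mitochondrially encoded genes took 3.27 ± 0.771% (SD, n = 11) of an organoid library and 2.47 ± 0.323% of a PSC library. The organoid share was higher in 9 of 11 cultures (exact 2-sided paired sign-flip permutation test, p = 0.00879, where the smallest p 11 pairs allow is 0.000977). Both exceptions were T12-LOH cultures, at 2.11% in organoids and 2.43% in PSCs with PSC4 Rosa and 2.54% and 2.76% with PSC4 KO B4. The T12-LOH culture with PSC4 KO A3 had 2.51% and 2.27%, so the difference was not seen across that line. Genes of fatty acid synthesis and oxidation leaned the same way. For synthesis 22 of 34 were higher in organoids (64.7%) and 10 in PSCs (29.4%), and for oxidation 17 of 29 (58.6%) and 5 (17.2%). Scd2 was at -1.41 (SE 0.14), Fasn at -0.63 (SE 0.08) and Acsl5 at -3.18 (SE 0.10). Lpl, lipoprotein lipase, was at 8.78 (SE 0.48) and Fabp4, a fatty acid carrier, at 5.87 (SE 0.34).

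Glycolysis was not shifted as a list, with a median of -0.10 (0.23 on the TPM scale, where all tested genes had a median of 0.17). Of its 35 genes 11 were higher in PSCs (31.4%, against 37.3% of all tested genes) and 13 in organoids (37.1%, against 38%). The transporters and isoenzymes of glycolysis were divided. Slc16a3, the lactate exporter MCT4, was at 2.64 to 144 CPM in PSC libraries (median 56.3) and 119 to 256 CPM in organoid libraries (median 197), at -2.63 (SE 0.49), and Slc16a1, MCT1, was higher in PSCs at 1.06 (SE 0.14). Pfkm (0.68 (SE 0.12)) and Pfkp (-1.06 (SE 0.19)) are muscle and platelet forms of phosphofructokinase and went opposite ways. The call of Pfkm was lost with counts summed per organoid line (adjusted p = 0.0654). In the pentose phosphate route Tkt, transketolase, was higher in organoids at -1.80 (SE 0.11) and Taldo1 at -1.28 (SE 0.09). Serine and one-carbon genes split 12 and 9 of 24. Phgdh, the first enzyme of serine synthesis, was higher in organoids at -1.44 (SE 0.15), and Mthfd2, of the mitochondrial folate route, in PSCs at 0.94 (SE 0.14). Nnmt, which methylates nicotinamide and is known as a stromal enzyme of tumours, was at 15.6 to 36.4 CPM in PSC libraries (median 24.0) and had no count in the 11 organoid libraries together. Set against 3 counts over that group, it was at least 2700-fold higher in PSCs. Bcat1, which opens branched-chain amino acid breakdown, was at 88.5 to 134 CPM in PSC libraries (median 105) and 0 to 2.1 CPM in organoid libraries (median 0.0344), at 8.74 (SE 0.73), while its mitochondrial relative Bcat2 was higher in organoids at -1.08 (SE 0.16). Glul, glutamine synthetase, was higher in organoids at -1.36 (SE 0.13).

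Detoxification and mucin glycan genes were mostly higher in organoids, and glycosaminoglycan and collagen modification genes in PSCs. Of 53 glutathione and xenobiotic genes, 31 were higher in organoids (58.5%, against 38% of all tested genes) and 18 in PSCs (34.0%, against 37.3%). Of the 31, 18 were higher by 8-fold or more, a size that 8.26% of all tested genes reached in organoids. Gsta4, a glutathione transferase, was at 0.891 to 9.02 CPM in PSC libraries (median 2.52) and 378 to 1069 CPM in organoid libraries (median 621.5), at -7.77 (SE 0.27), and Gpx2, the gut glutathione peroxidase, at -8.87 (SE 0.34); Gpx8 (3.48 (SE 0.14)) and Ptgs1, cyclooxygenase 1 (1.24 (SE 0.28)), were higher in PSCs. Mucin-type O-glycosylation genes were higher in organoids in 17 of 24 (70.8%) and in PSCs in 5 (20.8%). Gcnt3, which branches mucin glycans, was at -9.16 (SE 0.44), Fut2 at -8.58 (SE 0.33) and Galnt3 at -8.06 (SE 0.33). Glycosaminoglycan synthesis went the other way, with 29 of 42 higher in PSCs and 5 in organoids; Chst11, a chondroitin sulfotransferase, was at 4.98 (SE 0.97), and Hs3st1, a heparan sulfotransferase, was the largest exception at -8.98 (SE 0.31). Of 23 collagen modification enzymes, 20 were higher in PSCs (87.0%). Lox, the collagen cross-linking oxidase, was at 431 to 1218 CPM in PSC libraries (median 933) and 0 to 1.27 CPM in organoid libraries (median 0.1375), at 12.03 (SE 0.51), and Serpinh1, the collagen chaperone, at 6.34 (SE 0.28). The exception was Pcolce2, at -4.17 (SE 0.65), whose relative Pcolce was at 5.50 (SE 0.15).

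**Figure D4:**
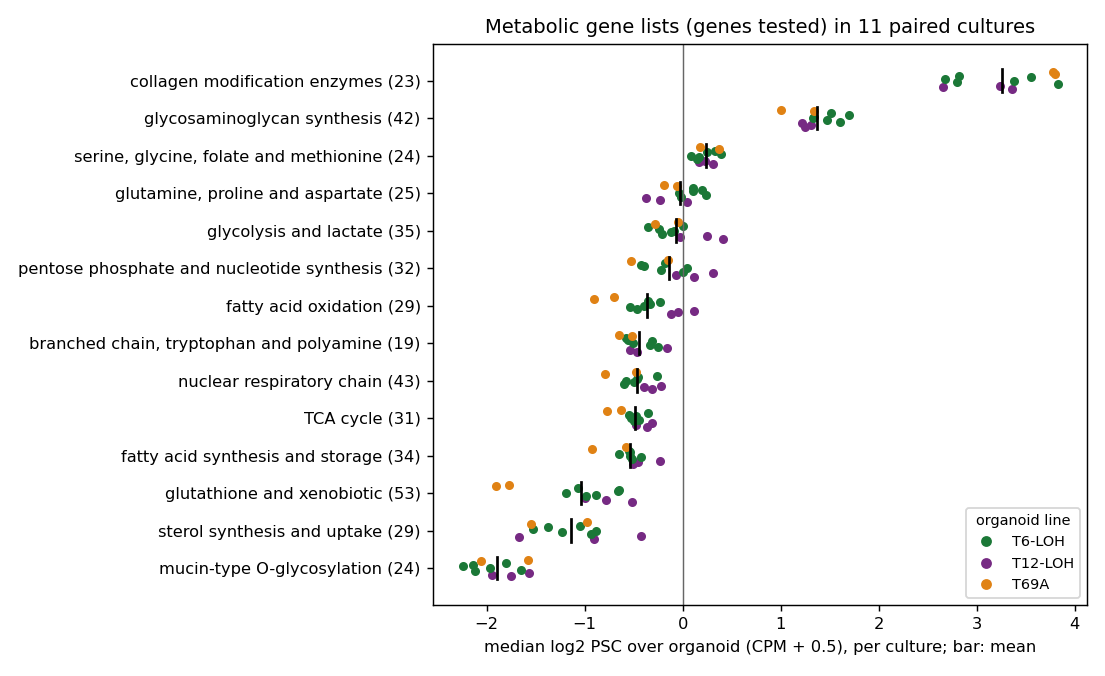
Median difference of each of 14 metabolic gene lists in each of 11 cultures, as log2 of PSC over organoid CPM with 0.5 added; each point is 1 culture, the black bar is their mean, and colour gives the organoid line. Sterol, TCA and respiratory chain lists lie below 0 in all 11 cultures, and glycosaminoglycan and collagen modification lists above it.

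The fractions also used different transcripts of the same genes. Usage differed at 1468 of 8696 genes with several transcripts (16.9%, edgeR's diffSpliceDGE, adjusted p under 0.05 by gene). Genes known for splice switches between epithelium and mesenchyme were examined. Their exons were taken from pairs of named transcripts, with these data known. Enah (adjusted p = 2.38e-11), Cd44 (adjusted p = 7.54e-28), Ctnnd1 (adjusted p = 1.97e-11) and Tpm1 (adjusted p = 5.49e-25) each passed. Pkm passed at adjusted p = 7.51e-04, and Fgfr1 (adjusted p = 0.666) and Arhgef11 (adjusted p = 1.00) did not. Exon shares below are the percent of a gene's TPM, among transcripts spanning the exon, that lies in transcripts holding it. They are estimates that Salmon made by distributing reads over the annotated transcripts, and are given with no test of their own. Exon positions are from build GRCm38, on the minus strand.

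Enah, an actin regulator, has a 63-base exon at chr1:181911597-181911659 whose inclusion is a known mark of epithelial cells. Its share was 55.6 ± 5.25% (SD, n = 11) in organoids, 49.0 to 63.5%, and 13.4 ± 3.24% in PSCs, 7.95 to 18.6%, with no overlap. Ctnnd1, which encodes p120-catenin of cell junctions, has an 18-base exon at chr2:84612532-84612549 whose share went the other way, 42.2% in PSCs (36.3 to 53.5%) and 12.9% in organoids (10.3 to 15.2%). A 63-base exon of Ctnnd1 differed less, at 50.9% in PSCs (44.2 to 57.3%) and 56.5% in organoids (53.4 to 60.6%). Cd44, the hyaluronan receptor, did not differ detectably in its total level (-0.20 (SE 0.13), adjusted p = 0.182) but in its variable exons. The 7th of 10, at chr2:102837813-102837938, was in 50.6% of Cd44 transcripts in organoids (44.4 to 56.3%) and 0.747% in PSCs (0.363 to 1.28%). Its neighbours were not as sparse in PSCs: the 5th was in 44.6% of PSC and 57.7% of organoid transcripts, and the 6th in 44.7% and 83.4%. The 1st stood at 0.664% in PSCs and 19.0% in organoids, and the 4th at 0.699% and 24.9%. The Cd44 transcript that holds none of the 10 made up 54.1 ± 1.14% of Cd44 in PSCs and 0.989 ± 1.14% in organoids. The last 3 variable exons were in 95.8 to 99.0% of organoid transcripts on average and in 44.7 to 45.7% of PSC transcripts. In PSCs that share sat mostly in 1 transcript, which also ends in a longer last exon, so use of the variable exons and of the transcript's end cannot be told apart there. Tpm1, tropomyosin 1, holds a pair of mutually exclusive 76-base exons. The first, at chr9:67032466-67032541, took 81.9% in organoids (74.3 to 90.0%) and 25.0% in PSCs (15.8 to 33.6%), and the second, at chr9:67031951-67032026, took 16.3% and 73.3%. The sequences of 5 of these exons are given in capitals, from GENCODE M21. Each lies between 20 lower-case bases of the neighbouring exons of 1 transcript that holds it. The Tpm1 exons have the same base at 43 of 76 positions (56.6%).

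Enah 63-base exon: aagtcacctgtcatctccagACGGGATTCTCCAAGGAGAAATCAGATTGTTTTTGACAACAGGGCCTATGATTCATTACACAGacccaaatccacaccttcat
Cd44 variable exon 7 of 10: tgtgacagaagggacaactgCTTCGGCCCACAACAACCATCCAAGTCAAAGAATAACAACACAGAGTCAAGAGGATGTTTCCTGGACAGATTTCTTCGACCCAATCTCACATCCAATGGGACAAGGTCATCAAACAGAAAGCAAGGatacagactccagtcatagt
Ctnnd1 18-base exon: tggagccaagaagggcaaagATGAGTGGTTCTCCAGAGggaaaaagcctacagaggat
Tpm1 first exon: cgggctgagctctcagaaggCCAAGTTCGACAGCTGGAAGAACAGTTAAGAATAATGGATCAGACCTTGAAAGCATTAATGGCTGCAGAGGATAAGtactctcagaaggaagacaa
Tpm1 second exon: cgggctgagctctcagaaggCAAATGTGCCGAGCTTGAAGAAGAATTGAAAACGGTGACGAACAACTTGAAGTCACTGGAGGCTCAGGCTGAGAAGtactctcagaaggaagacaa

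The Pkm exons, the classic pair of glycolysis, differed little: the exon of its main transcript, that of PKM2, took 90.2% in PSCs and 88.1% in organoids. The range over libraries was 85.5 to 94.2% and 85.7 to 89.4%.

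**Figure D5:**
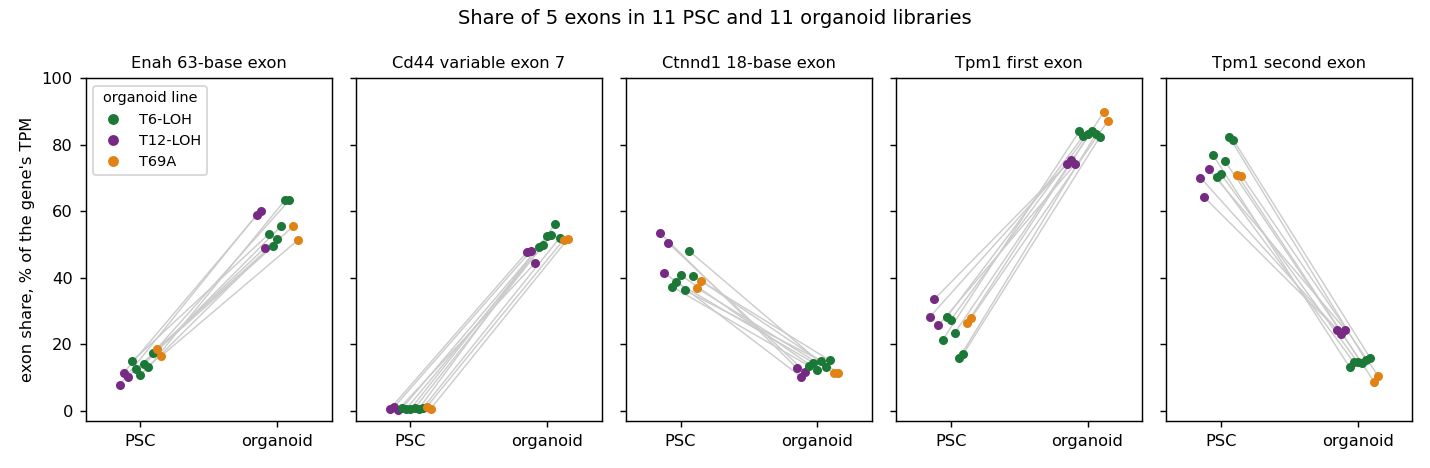
Share of each exon in each library, in percent of the gene's TPM in transcripts spanning it; each point is 1 library, lines join the fractions of 1 culture, and colour gives the organoid line. The Enah, Cd44 and first Tpm1 exons are higher in all 11 organoid libraries and the Ctnnd1 and second Tpm1 exons in all 11 PSC libraries.

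The fraction difference depended on the organoid line at 5046 genes (35.9%; test of both line terms with PSC line and genotype in the model). Among the 862 listed genes tested, 390 passed (45.2%). In the 3 T12-LOH cultures several genes high in PSCs were also detected in the organoid fraction. Adamts1, a matrix protease, was at 23.7 to 26.8 CPM in T12-LOH organoids, 0.105 to 0.282 in T6-LOH organoids and 0.17 to 0.227 in T69A organoids. Its PSC levels were 88.1 to 105.0, 86.3 to 233 and 125 to 156 CPM in the same order, so the difference came to 1.95 ± 0.162 (SD, n = 3), 7.69 ± 0.484 (n = 6) and 7.65 ± 0.138 (n = 2) on the log2 scale of CPM with 0.5 added (adjusted p = 4.39e-07). Fibroblast markers stood at 0.0474 to 0.112% of their PSC level in the same T12-LOH organoid libraries, with Fn1, fibronectin, the highest at 15.6 to 28.3%. Fermt2, an integrin activator, and Scarf2, a scavenger receptor, had the same pattern, at 29.2 to 33.1 and 18.0 to 20.8 CPM in T12-LOH organoids. Of listed genes, Inhba was at 24.0 to 40.1 CPM in T12-LOH organoids against 1.41 to 5.88 in T6-LOH and 2.3 to 5.07 in T69A (adjusted p = 1.26e-05). Twist1 was at 1.2 to 2.25 CPM in T12-LOH organoids, where T6-LOH had at most 0.0698 and T69A at most 0.0453 (adjusted p = 2.67e-05), and Il1rap, the shared interleukin-1 receptor subunit, was at 17.7 to 20.7 CPM against 0.705 to 1.56 and 1.92 to 2.63 (adjusted p = 1.42e-05).

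In T69A organoids some genes were at or near 0 that the other organoid lines held. Ror2, a WNT5A receptor, had no count in either T69A organoid library and 9.25 to 14.8 CPM in T6-LOH and 12.3 to 14.7 CPM in T12-LOH organoids, so its difference was 6.87 ± 0.0349 (n = 2), 2.06 ± 0.281 (n = 6) and 1.61 ± 0.146 (n = 3). Tmem173, which encodes the DNA sensor adaptor STING, was at 0.596 to 0.951 CPM in T69A organoids and 57.4 to 75.3 CPM in the other lines. PSC levels of Tmem173 were alike, 34.4 to 67.8 CPM. Gda, guanine deaminase, was not near 0 in T69A organoids but was highest in T6-LOH organoids, at 189 to 224 CPM against 31.5 to 48.5 CPM in the other lines. For 6 listed genes the mean difference of a line lay beyond 2-fold in both directions: Kdr, Flt1, Pgf, Tnfrsf11b, Cbr1 and Galnt6. Tnfrsf11b, the decoy receptor osteoprotegerin, was higher in organoids with T6-LOH (-1.70 ± 0.726) and T12-LOH (-1.57 ± 0.347) and higher in PSCs with T69A (1.26 ± 0.367). Epithelial markers passed this test in 17 of 20 cases (85.0%, against 35.9% of all tested genes). The PSC libraries of the 2 T69A cultures also held the most epithelial marker RNA, and its part in these calls was not tested.

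By genotype of the stellate cells the fraction difference changed at 28 genes (0.199%), with 2799 at an unadjusted p under 0.05 (19.9%). Leaving out single cultures moved this count to between 0 and 26: it was 0 without T6-LOH with PSC4 Rosa, without T12-LOH with PSC4 Rosa and without either T69A culture, and 1 without T6-LOH with PSC5 Rosa. It was also 0 with genotype as the only interaction term and 639 by DESeq2. The listed genes with the smallest p were Aldoc, Plxnd1, Gda, Cyp1b1, Dcn and Glul. Aldoc, aldolase C of glycolysis, was at 5.04 to 13 CPM in the 4 WT PSC libraries and 0.482 to 2.74 CPM in the 7 KO ones, and at 62.8 to 73.4 and 34.7 to 70.1 CPM in their organoids; the difference was lower with KO by 3.21 (fitted -3.21, SE 0.31, adjusted p = 0.0137). Plxnd1, a semaphorin receptor, stood at 78.4 to 150.0 CPM in KO and 52.6 to 96.6 CPM in WT PSC libraries, and in their organoids at 3.77 to 14.4 and 8.06 to 27.5 CPM (fitted 1.71, SE 0.19, adjusted p = 0.0168). Both calls were lost without each of the 5 cultures just named (adjusted p up to 0.109 for Aldoc and 0.113 for Plxnd1).

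Measures of the library as a whole differed slightly between the fractions. The 100 most abundant genes took 19.0 ± 0.509% of a PSC library and 20.7 ± 1.48% of an organoid library (p = 0.00684, exact paired sign-flip test, 2-sided). The Shannon diversity was 12.1 ± 0.035 and 12.0 ± 0.0875 bits (exact p = 0.00293), and 12420 ± 119 and 12240 ± 155 genes reached 1 CPM (exact p = 0.0352). Total counts did not differ beyond their spread (exact p = 0.271).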

How the data were processed

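The files deposited by the authors give estimated counts and TPM per transcript for 23 libraries. The submitters' processing notes name Salmon 1.9.0 and builds GRCm39 and mm39. The sources used here do not give the library kit, strandedness, read length or annotation. Transcripts (115973 of 117135, 99.0%) were assigned by ID to genes of GENCODE M21, used for names and, on its build GRCm38, for exons. Unmatched ones took 0.364 to 0.443% of a library and stayed out of the gene sums and fits. The depths given as estimated counts, for the paired libraries and for the library left out, include them. Counts and TPM were summed per gene, and counts rounded to whole numbers.

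The members, gene lists, pairs and tests were chosen with earlier results of these data known. Fractions were compared in edgeR 4.0.16 (R 4.3.3; TMM factors, filterByExpr by fraction, robust quasi-likelihood test) with culture as a block, adjusted by Benjamini-Hochberg; called means adjusted p under 0.05, and a second rule also asks for a log2 fold change of at least 3. Interactions of fraction with organoid line and with PSC genotype were tested in 1 model that also held the PSC line. Transcript usage was tested with diffSpliceDGE. Single values were compared by exact paired sign-flip permutation (2048 patterns). Of 1051 listed names, 862 passed the filter and were tested; 107 of the other 189 had under 100 counts over the 22 libraries.

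Named genes were, beside the 4 markers and Egfr, the 10 per direction with the highest TPM among those called at 8-fold or more and in the same direction in all 11 cultures; per list, up to 6 per direction with the highest TPM and up to 3 that went against the list or did not pass; members of placed pairs; and up to 6 listed and 6 other genes per interaction test; 2 genes that the rule names are not reported here. The block rests on the titles, which name the same organoid and PSC lines for both libraries of a culture. Deviations from the group means correlated between partners at -0.0785 to 0.312 (median 0.0786; 5 of 11 over 0.1). No 2 libraries of a group differed as little as sampling noise allows (lowest chi-square per degree of freedom 10.2). Labels name lines but no separate donors, so p-values measure the spread between these cultures. On simulated counts with known changes the fraction test recovered 81.6% of 2-fold and 98% of 8-fold changes, the genotype interaction 21.3% and 93.5%, the organoid line interaction 0% and 54.2%, and the transcript usage test 4.55% and 82.6%. The simulated spread came from the fit with culture and fraction only, so differences by line and genotype counted as noise in it. For the organoid line only the T12-LOH term was changed. The interaction rates may therefore differ from those on the real counts. Alternatives were other size factors, no filter, DESeq2 1.42.0, limma 3.58.1 on log2(TPM + 1), no block and subsets of cultures.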

Additional observations from a re-analysis of the deposited data

Results flagged for a closer look

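Among 7 KO PSC libraries, that of T69A with PSC4 KO B4 stood apart from the others of its group in epithelial marker RNA (0.673% of the organoid level) and in Epcam (2.92 CPM). In the same group 1 library held 2.74 CPM of Aldoc, above the other 6. Among organoids grown with KO PSCs, 1 library held 133 CPM of Egfr, above the rest. These 4 values came from 36 groups of values examined, where chance flags about 1 in 20.

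Differences between fractions that changed with the organoid line were tested as an interaction in edgeR. The T12-LOH cultures differed from the T6-LOH cultures by -7.43 on the log2 scale for Adamts1, -5.69 for Scarf2, -4.84 for Fermt2, -5.66 for Twist1, -3.79 for Inhba, -3.73 for Il1rap and -11.8 for Nrg1. For Nrg1 the fitted size depends on the prior count, because T6-LOH organoids had no count. The T69A cultures differed from the T6-LOH cultures by 11.6 for Ror2, 6.5 for Tmem173, 2.90 for Gda, -6.15 for Gata6 and 3.49 for Tnfrsf11b; that of Ror2 also rests on organoid libraries with no count. By genotype of the PSCs the difference changed by -3.21 for Aldoc and 1.71 for Plxnd1 (KO minus WT).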

How the results depend on the processing

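The count of called genes lay between 7188 (counts summed per organoid line) and 12301 (no filter) over all alternatives, and between 10299 and 10522 when 1 culture was left out; with no replicate block it was 10777. The 8-fold count of 2413 became 3766 with no filter and 1337 with limma on log2(TPM + 1), and 2402 to 2466 without single cultures. On the TPM scale the calls split into 6428 higher in PSCs and 4162 higher in organoids, and the median of all genes moved from -0.03 to 0.17. Relative to that median the TCA, respiratory chain and sterol lists stood at -0.51, -0.40 and -1.12 there. The median of glycolysis turned to 0.23, that of pentose phosphate and nucleotide synthesis to 0.18 (0.0454 with library totals) and that of ligands to 0.10; the cause was not tested.

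The 28 genes of the genotype interaction became 51 with no filter, 639 by DESeq2, 0 with this interaction alone and 0 to 26 without single cultures. The organoid line count was 3199 to 4754 without single cultures, lowest without T69A with PSC4 KO B4 and next (3214) without T12-LOH with PSC4 Rosa. Isoform calls fell to 760 with transcripts of at least 10% of their gene and were 1245 to 1377 without single cultures and 1454 with no replicate block. With 2-fold asked of both partners, 13 pairs had the ligand higher in organoids and the receptor in PSCs, and 56 were not placed. Of 139 named genes, 124 kept direction and call in every alternative that tested them, and none of 1527 values without 1 culture changed either. The call was lost for 8 genes with the 4 WT cultures alone and for 11 with counts summed per line. Cd44, which did not pass, turned to 0.10 on the TPM scale and 0.16 in T6-LOH cultures. Depth limits what can be said of genes under the filter.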

Other observations

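The PSC library left out for want of a partner (T69A with PSC4 KO A3, 21823084 estimated counts) took no part in any fit above except the comparison of all 23 libraries. It held 9030 CPM of Col1a1, 327 of Pdgfrb, 48.4 of Krt19 and 2.85 of Epcam. Of the 1252 genes at least 8-fold higher in PSCs, 1203 (96.1%) stood nearer the PSC mean than the organoid mean in this library on the log2 scale, and of the 1161 higher in organoids 1159 (99.8%) did.

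Some listed genes were not tested but were higher in 1 organoid line than in the others. The filter asked for expression in about as many libraries as a fraction holds. Fgf15, a gut FGF, was at 24.0 to 70.5 CPM in T6-LOH, 3.92 to 5.62 in T69A and 0.219 to 0.478 in T12-LOH organoids. Kit, the receptor of Kitl, was at 3.67 to 6.28 CPM in T12-LOH organoids with no count in any PSC library. It stood at 0.435 to 0.686 CPM in T6-LOH and 0.0417 to 0.0801 CPM in T69A organoids. Msln, mesothelin, a mesothelial marker that pancreatic tumour cells are also known to express, was higher in organoids at -7.10 on the log2 scale, and Cd74, the invariant chain of MHC class II, higher in PSCs at 7.74.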
